A study of Rattus norvegicus with 18 samples.

Results

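The vascular basement membrane genes described here are Col4a1, Col4a2, Col15a1, Col18a1, Lama4, Lamb1, Lamc1, Nid1, Nid2 and Hspg2. Their members are all probe sets of 2 Affymetrix rat array types, RAE230A (array A) and RAE230B (array B), that the platform annotation assigns to 1 of these genes alone. That gave 16 probe sets of 31256, for 10 genes of 13811, with 14 probe sets on array A and 2 on array B. A probe set is a group of short probes to 1 transcript, summarised in 1 signal. Col4a1, Lamc1, Nid1, Col18a1, Lama4 and Col15a1 have 2 probe sets each. Each gene is described through its brightest probe set on array A, and the other 6 probe sets are given beside it.

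The RNA came from thoracic aorta of male Fisher 344 rats, aged 5 weeks per the labels and 1 month per the series' design text. The vessel was cut into rings of 2 mm and cultured in serum-free medium. In this explant model the cut wall sends out endothelial sprouts together with mural cells, fibroblasts and macrophages. The treated groups were given their factor on day 13: either recombinant human VEGF (10 ng/ml) or angiopoietin-1 (Ang1), also recombinant human, at 100 ng/ml together with 5 µg/ml of a poly-His antibody. Untreated rings stayed in medium alone, and the labels give their culture as 14 days. The antibody was given in the Ang1 group only, so Ang1 and antibody cannot be told apart. The interval from treatment to harvest is 20 h in the labels and 18 h in the design text, and 4 to 6 rings were pooled for an RNA. Each group had 3 RNAs, each read on both array types per the labels, which makes 9 RNAs and 18 samples. Over 100 probe sets shared by both types, 8 of the 9 RNAs matched between their arrays. The design text describes 3 animals that each gave rings to all groups. The labels do not tie a replicate number to an animal, and p-values here measure the spread between these RNAs. Untreated replicate 1 was labelled with a different protocol (2-cycle) from the other 8 RNAs. Rings hold several cell types, so fewer cells of a type and less RNA per cell cannot be told apart.

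A basement membrane is the thin sheet of matrix that underlies endothelium and surrounds each smooth muscle cell and pericyte. It is built from a laminin network and a type IV collagen network, which nidogens and the heparan sulfate proteoglycan perlecan join to each other and to cell surface receptors. In growing vessels the sheet is degraded at the sprout front and laid down again around the new tube, where it holds growth factors and anchors endothelium and mural cells.

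Col4a1 and Col4a2 encode the chains of the ubiquitous type IV collagen trimer and lie head to head, sharing 1 short intergenic promoter. In the RefSeq promoter table (build GRCr8) their start sites are separated by 76 bases at chr16:84885521-84885596. The interval is shown because both genes are transcribed away from it and their signals can be set against that shared sequence. Given on the + strand, in the direction of Col4a1, its GC content is 78.9%, and capitals mark its single match to the motif GGGCGG (the core of the GC box), here on the opposite strand.
Col4a2-Col4a1 interval: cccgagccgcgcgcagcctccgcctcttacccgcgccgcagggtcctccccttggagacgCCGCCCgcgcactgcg

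Promoter sequence was found for 9 of the 10 genes. Of these, 7 held GGGCGG on either strand in the 250 bases upstream of the start, 3 held CCAAT and 1 held TATAAA. Among 33469 rat promoters of the same length the shares were 30.5%, 34.0% and 12.9%. The GC content of the 9 sequences ran from 53.2% to 75.2%. The upstream sequences of Col18a1, Lama4 and Lamc1 are printed because their brightest array A probe sets had low signals together in the same libraries, as described further on. The second probe sets of Lama4 and Lamc1 were not low there, so the choice rests on the probe set. Capitals mark GGGCGG and TATAAA on either strand, and overlapping matches were counted.
Col18a1 upstream, chr20:11473395-11473644, + strand: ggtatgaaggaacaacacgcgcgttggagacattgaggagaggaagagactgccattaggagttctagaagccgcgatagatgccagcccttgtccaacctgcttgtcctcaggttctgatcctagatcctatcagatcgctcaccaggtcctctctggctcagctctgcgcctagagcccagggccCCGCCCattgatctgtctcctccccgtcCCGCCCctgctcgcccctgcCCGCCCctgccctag
Lama4 upstream, chr20:43946648-43946897, + strand: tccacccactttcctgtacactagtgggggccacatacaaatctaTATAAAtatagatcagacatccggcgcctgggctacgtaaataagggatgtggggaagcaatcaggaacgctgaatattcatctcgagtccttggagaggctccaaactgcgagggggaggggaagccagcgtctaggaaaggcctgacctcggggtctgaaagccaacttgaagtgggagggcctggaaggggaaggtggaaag
Lamc1 upstream, chr13:68051987-68052236, - strand: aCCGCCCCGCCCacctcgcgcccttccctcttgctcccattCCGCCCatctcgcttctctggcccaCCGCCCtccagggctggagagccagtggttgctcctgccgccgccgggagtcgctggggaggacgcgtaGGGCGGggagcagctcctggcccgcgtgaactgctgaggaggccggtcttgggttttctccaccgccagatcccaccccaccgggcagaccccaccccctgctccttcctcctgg
Col18a1 had 3 matches to GGGCGG, Lamc1 had 5, and Lama4 had 0 and instead held the 1 TATAAA among the members. GGGCGG is thus in 2 of the 3 windows. A match is a description of the letters and not a measured binding site.

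Of the 9 RNAs, untreated replicate 2 and Ang1 replicate 2 stood apart from the other 7. Correlated with each of the other arrays, untreated replicate 2 had a median of 0.79 (array A) and 0.75 (array B) and Ang1 replicate 2 one of 0.69 and 0.43. The remaining 7 RNAs had medians of 0.87 to 0.94 and 0.81 to 0.87. The deposited signal of the Gapdh 3′ control on array A was 64.4 and 446.9 in them, and 2217.8 to 3246.8 in the others. The ratio of actin 3′ to 5′ signal on array A, a sign of RNA and labelling quality, was 1.86 to 7.70 in untreated, 6.18 to 8.29 in Ang1 and 8.79 to 12.4 in VEGF RNAs, so that VEGF did not overlap either other group there. On array B the ratio was 3.02 to 5.08, 1.25 to 7.38 and 5.24 to 11.9, and VEGF overlapped Ang1. The part of this ratio in the results below was not tested. Levels are log2(signal + 16) after quantile normalisation, and differences are in log2 units ± the standard error (SE) of a limma fit over the 9 arrays of a type.

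After VEGF 7 of the 10 genes read higher than in untreated rings and 3 lower, with a median difference of 0.28. After Ang1 5 read higher and 5 lower, with a median of 0.05, and against Ang1 VEGF was higher in 6 and lower in 4, with a median of 0.16. Over all 9991 genes measured the medians were -0.01, -0.06 and 0.05, and 49.2%, 45.0% and 54.8% of genes read higher. The members' median deviation in a single RNA had a pooled SD between replicates of 0.28. That is a spread of single RNAs and not of a difference between means of 3 RNAs. In limma with Benjamini-Hochberg adjustment, 0 of the 16 probe sets passed 0.05 in any comparison, as did 0% of all probe sets on both array types. At an unadjusted p below 0.05 there were 0 of 16 probe sets and 0 of 10 members in each comparison, against 1.31% of genes for VEGF, 5.6% for Ang1 and 3.87% for VEGF against Ang1. The SE of a member's difference ran from 0.28 to 0.82 with a median of 0.43, which sets the size of difference that these arrays could resolve.

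Replicates of a group overlapped with those of the compared group in nearly all members. All 3 VEGF values lay above all 3 untreated values in 1 of 10 genes, Lamc1, against 3.54% of all genes, and in 0 members did they lie below, against 4.42%. No member separated Ang1 from untreated rings (0 higher and 0 lower, against 5.03% and 7.24% of genes). VEGF lay below Ang1 without overlap in 1 gene, Col4a2, against 5.45% of genes, and above it in 0, against 5.08%.

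**Figure D1:**
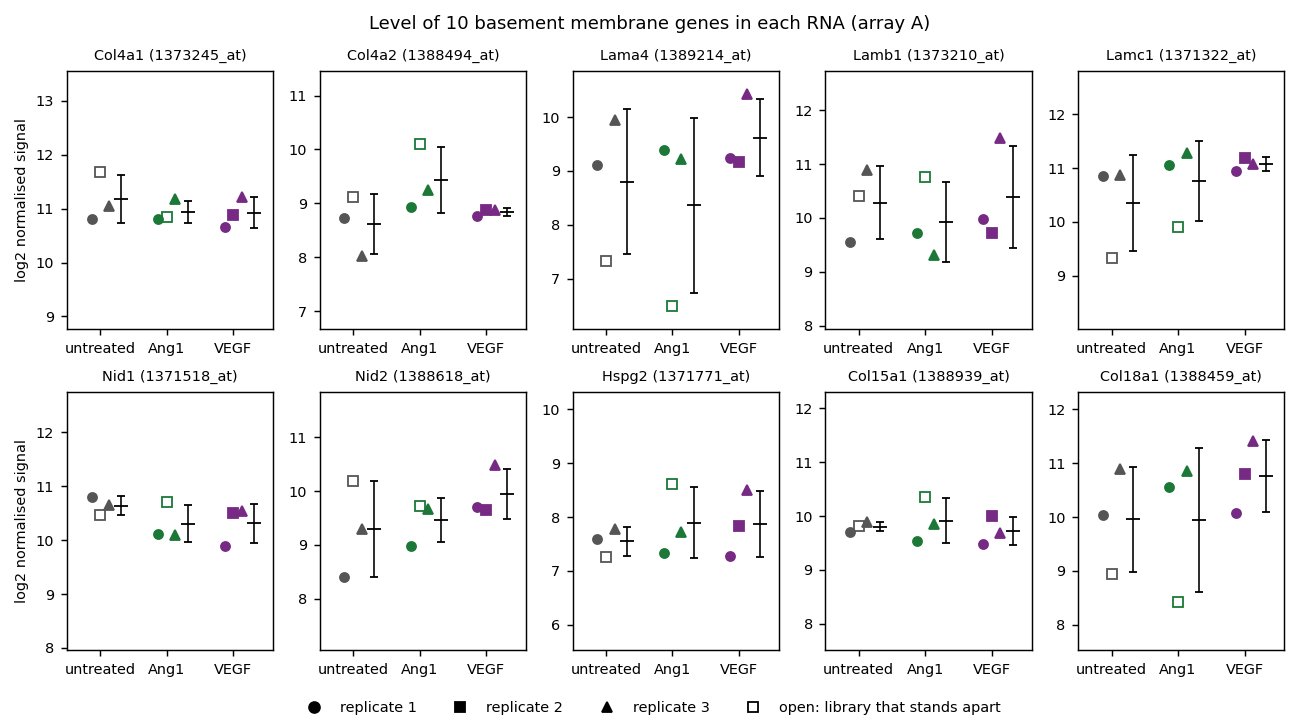
Level of each of the 10 genes through its named array A probe set, in log2 signal after quantile normalisation, for the 3 untreated, 3 Ang1 and 3 VEGF RNAs; points are RNAs, bars are the group mean ± SD (n = 3), and open squares are untreated replicate 2 and Ang1 replicate 2. Lamc1 is the gene in which all 3 VEGF points lie above all 3 untreated points, and Lama4, Lamc1 and Col18a1 are lowest at the open squares.

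Type IV collagen forms the cross-linked network of the sheet. Col4a1 (1373245_at) read 10.81, 11.68 and 11.05 in untreated replicates 1, 2 and 3, 10.80, 10.85 and 11.18 after Ang1, and 10.67, 10.89 and 11.23 after VEGF. The highest value was that of untreated replicate 2, and the groups overlapped. The group means were 11.18 ± 0.45 (SD, n = 3), 10.94 ± 0.20 and 10.93 ± 0.28, and the differences from untreated were -0.26 ± 0.28 for VEGF and -0.24 ± 0.28 for Ang1. Without the 2 libraries that stood apart they were -0.01 ± 0.24 and 0.05 ± 0.27.

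The second Col4a1 probe set (1372439_at) gave 10.35, 9.30 and 10.60 in untreated, 10.21, 9.82 and 10.80 in Ang1, and 10.64, 10.75 and 10.89 in VEGF RNAs. Here all VEGF values lay above all untreated ones, as in 3.63% of array A probe sets, by 0.68 ± 0.37, a 1.60-fold difference with the lowest unadjusted p of any member probe set for VEGF (0.0955; limma adjusted p 1.00). The sign was thus opposite to that of the first probe set. Untreated replicate 2 was the highest of the 9 RNAs on the first probe set and the lowest on the second, with deposited signals of 3958.6 and 618.5. Without both libraries that stood apart the second probe set differed by 0.29 ± 0.25, with the VEGF values still above the untreated ones.

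Col4a2 (1388494_at), the partner chain, read 8.72, 9.11 and 8.02 in untreated rings, 8.94, 10.11 and 9.24 after Ang1, and 8.76, 8.88 and 8.88 after VEGF. Ang1 replicates 2 and 3 lay above all untreated values and Ang1 replicate 1 lay within them. Between Ang1 and untreated rings the difference of 0.81 ± 0.38 (1.76-fold; 95% interval -0.02 to 1.65) had the lowest unadjusted p of the named members in that comparison, 0.0544, and a limma adjusted p of 0.953. Leaving out Ang1 replicate 2 gave 0.49 and leaving out untreated replicate 3 gave 0.51, while omission of untreated replicate 2 or of Ang1 replicate 1 gave 1.04 or 1.06. With both libraries that stood apart left out it was 0.74 ± 0.32, with an unadjusted p of 0.0453 and an adjusted p of 1.00, and then both remaining Ang1 values lay above both untreated ones. The VEGF difference was 0.23 ± 0.38 around tightly placed VEGF values (8.84 ± 0.07, SD, n = 3), and VEGF lay below Ang1 by 0.59 ± 0.38 on the log2 scale without overlap (adjusted p 0.972 by limma).

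The genes on either side of the interval printed above can be set against each other across RNAs. The Pearson correlation of Col4a1 and Col4a2 was 0.03 over the 9 RNAs and 0.08 over the 7 that did not stand apart, and with the second Col4a1 probe set it was -0.43 and 0.16. Both genes were read on the same arrays and share their normalisation.

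Among laminin chains, Lama4 encodes an alpha chain of endothelial basement membranes. Lamb1 and Lamc1 encode the widely used beta and gamma chains with which it assembles. Lama4 (1389214_at) read 9.12, 7.32 and 9.95 in untreated, 9.38, 6.49 and 9.22 in Ang1, and 9.24, 9.17 and 10.44 in VEGF RNAs. The low values were those of untreated replicate 2 and Ang1 replicate 2. VEGF differed from untreated by 0.82 ± 0.82 and Ang1 by -0.43 ± 0.82, and without these 2 libraries by 0.08 ± 0.42 and -0.23 ± 0.46. The array B probe set of Lama4 (1396066_at) stayed between 7.38 and 8.10 in all 9 RNAs and differed by 0.18 ± 0.31 and -0.04 ± 0.31.

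Lamb1 (1373210_at) read 9.55, 10.41 and 10.89 in untreated rings, 9.73, 10.75 and 9.31 after Ang1 and 9.98, 9.73 and 11.48 after VEGF. The groups overlapped, and the differences were 0.11 ± 0.54 for VEGF and -0.35 ± 0.54 for Ang1. Its highest value came from VEGF replicate 3. Without both libraries that stood apart the Ang1 difference was -0.70 ± 0.58.

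Lamc1 (1371322_at) read 10.85, 9.32 and 10.88 in untreated, 11.06, 9.90 and 11.29 in Ang1, and 10.95, 11.19 and 11.08 in VEGF RNAs. The VEGF values were tightly placed (11.07 ± 0.12, SD, n = 3) and lay just above the untreated ones. The difference of 0.73 ± 0.46 (1.65-fold; 95% interval -0.30 to 1.75) had a limma adjusted p of 1.00. It was 0.21 ± 0.20 without both libraries that stood apart, still with no overlap. The dim second probe set (1370993_at) ranged from 5.96 to 7.21 and differed by 0.18 ± 0.32 for VEGF and -0.31 ± 0.32 for Ang1.

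Nidogens bridge the laminin and type IV collagen networks. Nid1 (1371518_at) read 10.81, 10.46 and 10.65 in untreated, 10.12, 10.71 and 10.09 in Ang1 and 9.90, 10.50 and 10.54 in VEGF RNAs. Ang1 and VEGF had nearly the same mean, 10.31 ± 0.35 and 10.31 ± 0.36 against 10.64 ± 0.17 (SD, n = 3 each), with both differences at -0.33 ± 0.29. With both libraries left out the differences were -0.62 ± 0.29 for Ang1 (unadjusted p 0.059; adjusted p 1.00) and -0.42 ± 0.27 for VEGF, and no treated value then reached the untreated ones. The second Nid1 probe set (1371032_at) pointed the other way, by 0.51 ± 0.58 for VEGF and 0.10 ± 0.58 for Ang1. With both libraries left out it gave 0.28 ± 0.32 and 0.63 ± 0.35, and both remaining Ang1 values then lay above both untreated ones, the opposite of the first probe set.

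Nid2 (1388618_at) read 8.40, 10.19 and 9.29 in untreated, 8.98, 9.73 and 9.67 in Ang1, and 9.71, 9.64 and 10.48 in VEGF RNAs. Of the 3 groups the untreated replicates covered the widest range, and their replicate 2 lay above all but 1 of the VEGF values. The VEGF difference was 0.65 ± 0.45 (1.57-fold) with a limma adjusted p of 1.00. Without both libraries that stood apart it was 1.10 ± 0.39, or 2.15-fold, the highest of the members, with the 3 VEGF values above both untreated ones, an unadjusted p of 0.0178 and an adjusted p of 1.00. Omitting untreated replicate 1, which carried the different labelling protocol, gave 0.20, omitting untreated replicate 2 gave 1.07 and omitting VEGF replicate 3 gave 0.39. The Ang1 difference was 0.17 ± 0.45.

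Perlecan, the product of Hspg2, carries the heparan sulfate chains that bind growth factors. Hspg2 (1371771_at) read 7.60, 7.26 and 7.78 in untreated, 7.33, 8.62 and 7.72 in Ang1, and 7.28, 7.83 and 8.51 in VEGF RNAs. Its highest value was in Ang1 replicate 2, and the groups overlapped. Differences were 0.32 ± 0.41 for VEGF and 0.34 ± 0.41 for Ang1, and without both libraries that stood apart they were 0.19 ± 0.36 and -0.17 ± 0.39. The VEGF difference was 0.0043 without VEGF replicate 3, 0.62 without VEGF replicate 1 and 0.18 without untreated replicate 2.

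Col15a1 and Col18a1 encode the multiplexins, collagens with heparan or chondroitin sulfate chains that line vascular basement membranes, and the end fragment of type XVIII collagen is endostatin, an inhibitor of angiogenesis. Col15a1 (1388939_at) read 9.71, 9.82 and 9.89 in untreated, 9.53, 10.36 and 9.85 in Ang1, and 9.48, 10.00 and 9.68 in VEGF RNAs. Its untreated values were the closest together of the named members (9.81 ± 0.09, SD, n = 3). Differences were -0.09 ± 0.29 for VEGF and 0.11 ± 0.29 for Ang1, with 95% intervals of -0.72 to 0.55 and -0.53 to 0.74. On array B (1379345_at) Ang1 replicate 2 read 7.98 and the other 8 RNAs 9.67 to 10.33, and the Ang1 difference of -0.62 ± 0.51 was -0.09 ± 0.33 without both libraries that stood apart.

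Col18a1 (1388459_at) read 10.03, 8.94 and 10.90 in untreated, 10.56, 8.42 and 10.85 in Ang1, and 10.08, 10.80 and 11.41 in VEGF RNAs. Untreated replicate 2 and Ang1 replicate 2 were again the lowest. VEGF differed from untreated by 0.81 ± 0.67 (1.75-fold) and Ang1 by -0.01 ± 0.67, and without these libraries by 0.29 ± 0.39 and 0.24 ± 0.43. The second probe set (1388143_at) differed by 0.30 ± 0.43 and 0.23 ± 0.43, and without these libraries by -0.12 ± 0.26 and 0.18 ± 0.29, so that for VEGF its sign was then opposite to that of the first.

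**Figure D2:**
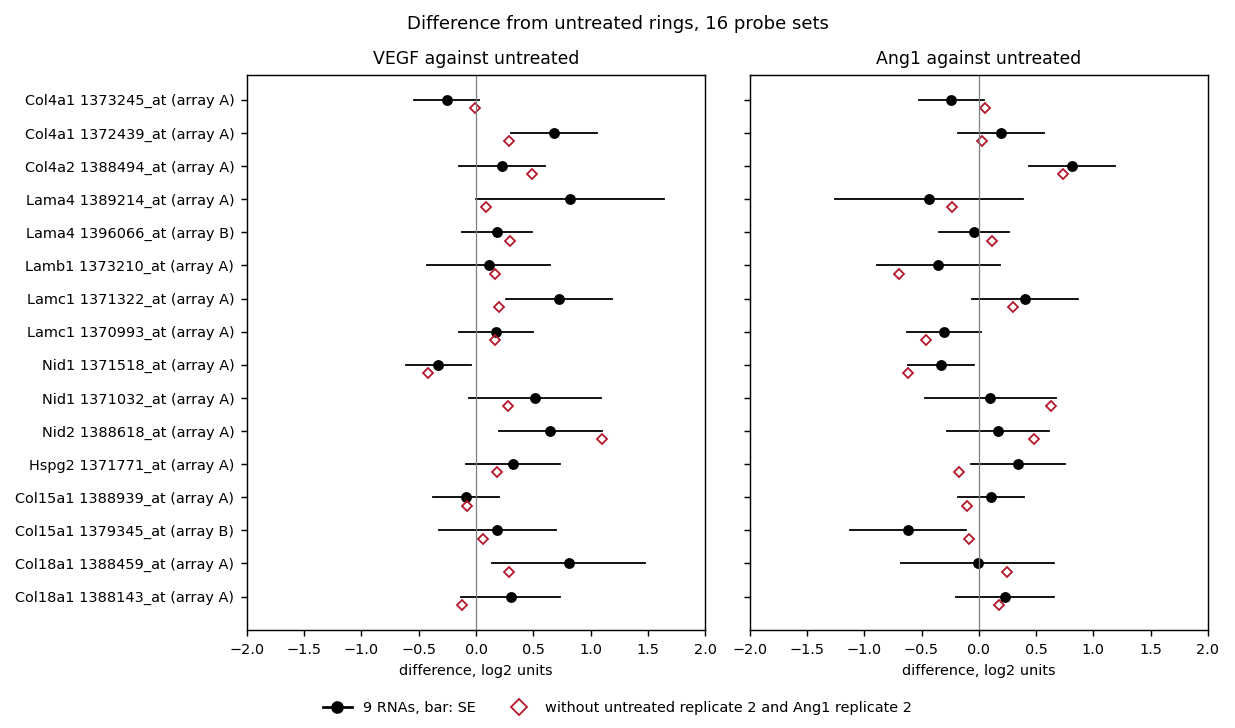
Difference from untreated rings of all 16 probe sets, in log2 units, for VEGF (left) and Ang1 (right); black points are the fit over 9 RNAs with bars of 1 SE, and open diamonds leave out untreated replicate 2 and Ang1 replicate 2. For VEGF the diamonds of Lama4, Lamc1 and Col18a1 lie nearer to 0 than the points, and that of Nid2 lies farther, at 1.10.

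Among genes that read higher after VEGF than after Ang1 the difference was largest for Lama4, by 1.26 ± 0.82 (95% interval -0.57 to 3.08), then for Col18a1 by 0.82 ± 0.67 and for Nid2 by 0.48 ± 0.45. Limma adjusted p-values were 0.972 for these 3 genes. With both outlying libraries left out they were 0.32 ± 0.42, 0.05 ± 0.39 and 0.62 ± 0.39. Nid1, Col4a1 and Hspg2 differed by 0.00 ± 0.29, -0.02 ± 0.28 and -0.02 ± 0.41, with 95% intervals of -0.63 to 0.64, -0.65 to 0.61 and -0.92 to 0.89.

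Leaving out both libraries kept the counts for VEGF at 7 higher and 3 lower and for Ang1 at 5 and 5, with medians of 0.18 and -0.03. Under the unchanged Ang1 count 4 of the 10 genes changed sign (Col4a1, Col15a1, Col18a1 and Hspg2), while 0 did so for VEGF. For VEGF, now 3 RNAs against 2, there was no overlap in 3 genes that read higher (Nid2, Col4a2 and Lamc1) and 1 that read lower (Nid1), against 7.44% and 7.65% of all genes. For Ang1, 2 RNAs against 2, it was 2 higher (Col4a2 and Lamc1) and 1 lower (Nid1), against 19% and 19.3%. In limma 0 members passed 0.05 after adjustment, as did 0% of genes. At an unadjusted p below 0.05 were 1 member for VEGF (Nid2) and 1 for Ang1 (Col4a2), against 2.66% and 3.92% of genes.

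The members split in how their named probe sets read in the 2 libraries. Col18a1, Lama4 and Lamc1 lay below all other 7 RNAs in both. The second probe sets split otherwise. Those of Lamc1 (6.85 and 6.83) and Lama4 (7.85 and 7.52) lay within the range of the 7. Those of Col4a1 (9.30 and 9.82), Nid1 (6.30 and 5.39), Col18a1 (8.30 and 8.63) and Col15a1 (9.67 and 7.98) lay below all 7 in both. The values that follow are of the named probe sets. Against the mean of the 7, Lama4 was at -2.18 in untreated replicate 2 and -3.01 in Ang1 replicate 2, Col18a1 at -1.72 and -2.24, and Lamc1 at -1.72 and -1.14. Among all genes 15% lay below the other 7 in both libraries, 23.7% in untreated replicate 2 and 36.9% in Ang1 replicate 2, against 3, 4 and 3 of the 10 members. Hspg2 was the fourth in untreated replicate 2, at -0.46, and was at 0.90 in Ang1 replicate 2. Col4a2 was above the mean of the 7 in both, at 0.33 and 1.33, as were Nid2 at 0.73 and 0.27 and Lamb1 at 0.32 and 0.66.

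Pairs of probe sets to 1 gene diverged in the same libraries. For Col4a1 the gap between its probe sets, set to a mean of 0 over the other 7 RNAs, lay between -0.32 and 0.25 in those 7. It reached 2.04 in replicate 2 of the untreated and 0.69 in replicate 2 of the Ang1 rings. For Nid1 it lay between -0.62 and 1.06 and was 1.12 and 2.28. The gap of Lamc1 was -1.73 and -1.12 against -0.50 to 0.90, and that of Col18a1 was -0.45 and -1.29 against -0.66 to 0.63. For Lama4 and Col15a1 the gap runs between array types that were normalised separately. It was -2.35 and -2.84 for Lama4, against -0.74 to 0.68, and 0.46 and 2.68 for Col15a1, against -0.34 to 0.25. On array A alone the gap left the range of the 7 in 3 of 4 members in untreated replicate 2 and in 4 of 4 in Ang1 replicate 2, where 52.8% and 64.7% of 742 genes did so.

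**Figure D3:**
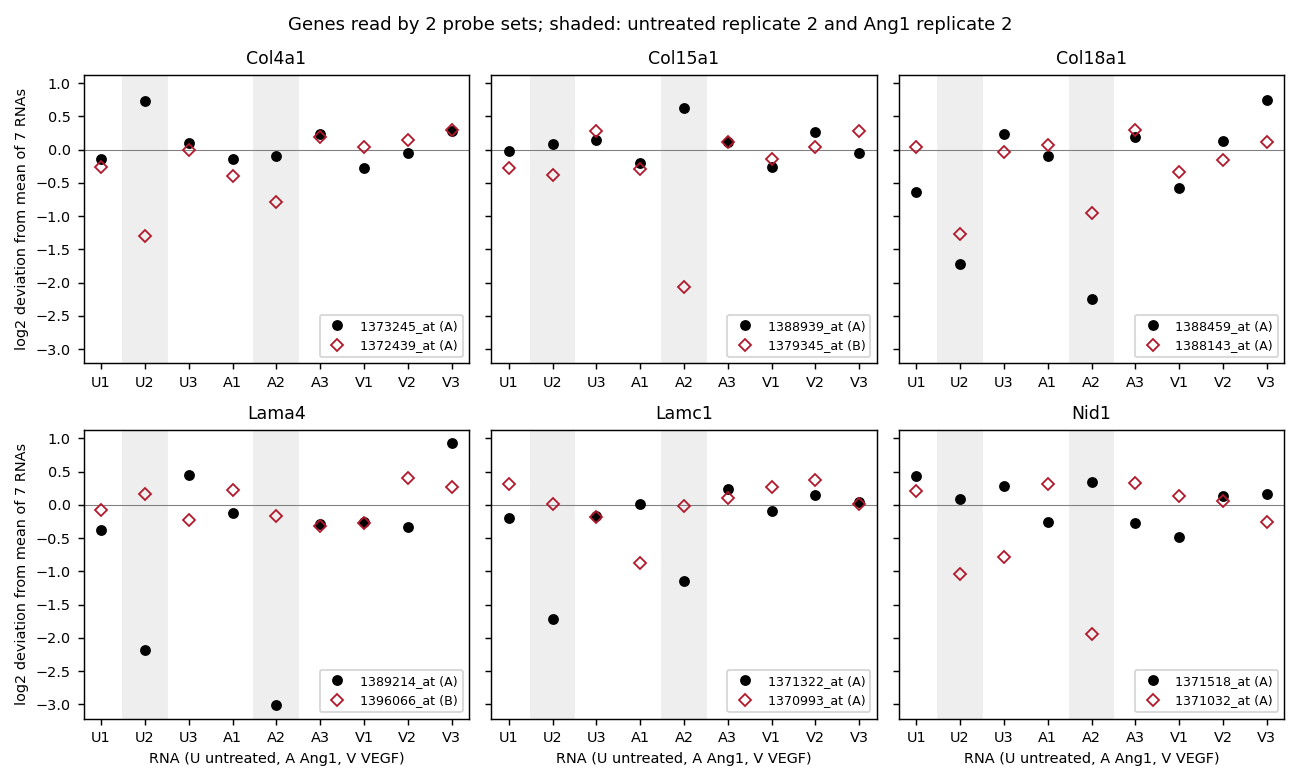
Level of both probe sets of the 6 members that have 2, in log2 units relative to that probe set's mean over the 7 RNAs that do not stand apart; filled points are the named probe set, open diamonds the second, and shading marks untreated replicate 2 and Ang1 replicate 2. The gap between point and diamond leaves the range of the other 7 RNAs in 5 of 6 genes in the first shaded RNA and in 6 of 6 in the second.

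Probe sets to 1 gene also ranked the RNAs differently. Over the 9 RNAs the Pearson correlation of the pair was 0.88 for Col18a1, 0.12 for Lama4, 0.01 for Lamc1, -0.41 for Col4a1, -0.52 for Nid1 and -0.65 for Col15a1. Over the 7 it was 0.48, 0.20, 0.03, 0.63, -0.50 and 0.56. A correlation below 0 over the 9 RNAs was found in 40% of the 742 genes with several probe sets on array A.

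Among the 10 named probe sets the 45 pairwise correlations had a median of 0.00 over 9 RNAs, from -0.76 for Col4a2 with Lama4 to 0.96 for Col18a1 with Lama4. Over the 7 RNAs the median was 0.43. The highest pair thus consisted of 2 genes that were lowest in both libraries that stood apart. All values share arrays and normalisation, and no test was made of them. The genes most like Col4a1 by Pearson correlation over the 9 RNAs were Mrpl41 at 0.94, Patz1 at 0.92, Lyar at 0.90, Prkdc at 0.90 and Magi3 at 0.89, and over the 7 RNAs these were 0.90, 0.76, 0.82, 0.70 and 0.92. The nearest member over the 9 RNAs was Nid2, at 0.58 on rank 531 of 9519 probe sets, and it was at 0.55 over the 7. Over the 7 RNAs Col18a1 was at 0.87 and Hspg2 at 0.81, where over the 9 they were at -0.098 and -0.028, so the likeness of the members to Col4a1 changed with the 2 libraries that stood apart.

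VEGF replicate 3 stood highest of the 9 RNAs in 4 of the 10 members, against 15.6% of all genes. The mean deviation of the 10 genes from their own means was 0.61 there, against -0.16 and 0.10 in VEGF replicates 1 and 2. In untreated rings it was -0.20, -0.31 and 0.17 and in Ang1 rings -0.12, -0.17 and 0.08. Both libraries that stood apart had a negative mean but a positive median over these genes, 0.02 for the untreated and 0.23 for the Ang1 library. The typical member was thus not below its own mean there. Without VEGF replicate 3 the median difference of the members was 0.11 for VEGF against untreated and -0.09 for VEGF against Ang1.

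Other components of basement membranes, in a list of 27 genes of which 16 were measured above the filter, read 9 higher and 7 lower after VEGF (median 0.07) and 6 higher and 10 lower after Ang1 (median -0.08). In limma 0 genes of this list and of the 3 lists that follow passed 0.05 after adjustment. At an unadjusted p below 0.05 there were 0 for VEGF and 1 for Ang1 in this list, 1 and 0 among receptors, 0 and 2 in collagen folding and 0 and 0 in turnover. Over all genes the shares were 1.31% for VEGF and 5.6% for Ang1. On array B, which read Col4a6 and Loxl2, the share of probe sets was 10.5% for Ang1. In this list the genes with the smallest unadjusted p for VEGF were Smoc1, a calcium-binding basement membrane protein, at 0.74 ± 0.39, and the type IV collagen chain Col4a5 at -0.61 ± 0.41. For Ang1 they were Col4a6, another type IV chain, at -1.004 ± 0.43 with limma unadjusted p 0.0388 and adjusted p 0.466, and again Col4a5, at -0.52 ± 0.41.

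Receptors for these matrices, 17 of 18 measured, read 11 higher and 6 lower after VEGF (median 0.04) and 9 and 8 after Ang1 (median 0.23). Bcam, a laminin receptor, differed after VEGF by -0.81 ± 0.28 (unadjusted p 0.0165 in limma, adjusted p 1.00), and the syndecan Sdc4 by 1.21 ± 0.71. After Ang1 the integrin chains Itgb4 and Itga5 differed by 0.63 ± 0.41 and 0.46 ± 0.34.

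Enzymes and chaperones of collagen folding and secretion, 14 of 15 measured, read 10 higher and 4 lower after VEGF (median 0.12) and 8 and 6 after Ang1 (median 0.05). P4hb, a subunit of the prolyl hydroxylase of collagen, differed after VEGF by 1.40 ± 0.74. Loxl2, which cross-links type IV collagen, was at -0.51 ± 0.31 after VEGF and -1.28 ± 0.31 after Ang1, where its limma unadjusted p was 0.00164 and its adjusted p 0.466. Crtap, a partner of another prolyl hydroxylase, was at 1.44 ± 0.50 after Ang1 (unadjusted p 0.016 in limma, adjusted p 0.953).

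Genes of matrix turnover, 17 of 21 measured, read 13 higher and 4 lower after VEGF (median 0.35) and 9 and 8 after Ang1 (median 0.11). Mmp14, a membrane-bound matrix metalloproteinase, differed after VEGF by 1.19 ± 0.81 and the cathepsin Ctsb by 0.35 ± 0.22. After Ang1 the protease genes Mmp3 and Adamts1 differed by 1.15 ± 0.63 and -0.41 ± 0.25.

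The markers of the cells that make these membranes were set beside the members. Of 12 endothelial markers 10 passed the filter, and the 2 others, Cdh5 and Robo4, had no named probe set. Their mean level ran from 7.30 to 8.33 in untreated, 7.05 to 8.29 in Ang1 and 7.91 to 8.39 in VEGF RNAs, with the lowest untreated and Ang1 values in the libraries that stood apart. Smooth muscle markers (9 of 9) ran from 8.005 to 9.00, 8.16 to 8.92 and 8.44 to 8.64, and pericyte markers (8 of 8) from 8.16 to 8.84, 8.26 to 8.73 and 8.52 to 8.85. Fibroblast markers (7 of 7) stayed between 11.67 and 11.88 in the 9 RNAs. Relative to each gene's own mean, endothelial markers were at a mean of -0.69 and smooth muscle markers at -0.58 in untreated replicate 2. In Ang1 replicate 2 they were at -0.93 and -0.43. The named probe sets of Lama4, Lamc1 and Col18a1 were lowest in these 2 libraries. The median over smooth muscle markers was -0.08 and -0.65 there. Other lists had low means there too: macrophage markers (-0.72 and -0.21), pericyte markers (-0.39 and -0.30), matrix receptors (-0.53 and -0.41) and collagen folding genes (-0.60 and -0.42). The medians of these lists were -0.41 and 0.001, -0.46 and -0.41, 0.02 and -0.07, and -0.41 and -0.22. The typical matrix receptor was thus near its own mean in both libraries, and the typical macrophage marker in Ang1 replicate 2. Fibroblast markers had means of -0.008 and -0.045.

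Macrophage markers (8 of 8) ran from 8.80 to 9.67 in untreated, 9.32 to 9.97 in Ang1 and 9.56 to 9.88 in VEGF RNAs. They read higher in 7 of 8 genes after VEGF (median 0.53) and 8 of 8 after Ang1 (median 0.54). Of them 0 passed the adjusted limma threshold, and 0 and 1 had an unadjusted p below 0.05, against 1.31% and 5.6% of all genes. Lymphocyte (2 of 5), adipocyte (2 of 4), Schwann cell (1 of 4) and mesothelial markers (1 of 4) were mostly under the filter or without a probe set. The mean level of the members ran from 9.45 to 9.93, 9.60 to 9.84 and 9.60 to 10.37. The part of cell makeup in the members' values was not tested.

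**Figure D4:**
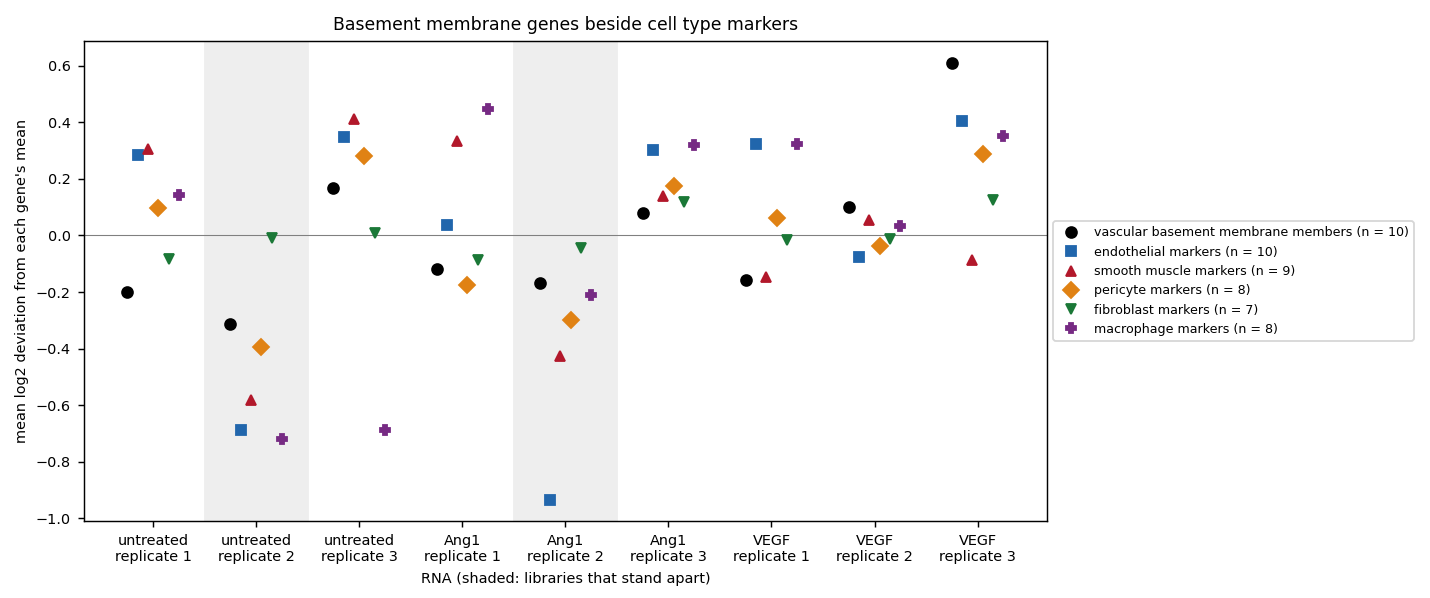
Mean log2 deviation from each gene's own mean, per RNA, for the 10 basement membrane genes and for markers of 5 cell types; each point is the mean of a list in 1 RNA, and shading marks the libraries that stood apart. Endothelial markers have their own lowest values in the shaded RNAs, at -0.69 and -0.93, and macrophage markers are at -0.72 in the first of these. The members are highest in VEGF replicate 3, at 0.61.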

How the data were processed

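The authors deposited 1 linear intensity per probe set and array. The submitters' processing notes name MAS5 (version: not given in the sources used here). Detection calls were not used. The trimmed mean of an array was about 250 on 17 arrays, and on array B that of Ang1 replicate 3 was 94.8. Values were taken as log2(signal + 16) and quantile normalised within an array type. The 57 controls of each type and probe sets with a mean below the 40th percentile were left out, which left 9520 probe sets on array A (of 15923) and 9166 on array B (of 15333), all 16 members among them. Symbols came from the platform annotation, updated by gene ID. Limma 3.58.1 in R 4.3.3 fitted 1 model with an intensity trend over the 9 arrays of a type, with Benjamini-Hochberg adjustment over all its probe sets at 0.05. The script was tested on simulated data. The named probe set is the brightest on array A. Of each pathway list the 2 genes with the smallest p per comparison with untreated rings are named. Sequences are from RefSeq (GRCr8). The members and lists were chosen with earlier results of these data known. Alternatives were scaling without quantile normalisation, a pseudocount of 1, no filter, the mean over a gene's probe sets, a replicate block, and leaving out each RNA or both that stood apart. The number of arrays limits the precision.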

Additional observations from a re-analysis of the deposited data

How the results depend on the processing

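Of 432 recomputed differences of single members 392 kept their sign and 40 changed it, with 0 past the threshold in any, and the 90 recomputed counts of probe sets were 0 throughout. Many of the 432 could hardly change, so the 392 do not measure stability. The block and the absence of a filter leave a difference as it was. An RNA omitted from a group outside a comparison alters its difference only through the normalisation. Outside the omission of single RNAs, the sign changed as follows. With arrays scaled but not quantile normalised, Ang1 against untreated gave -0.086 for Col15a1 and VEGF against Ang1 gave 0.15 for Col4a1. Without both libraries that stood apart, Ang1 against untreated gave 0.054 for Col4a1, -0.11 for Col15a1, 0.24 for Col18a1 and -0.17 for Hspg2, and VEGF against Ang1 gave 0.028 for Col15a1, -0.094 for Lamc1 and 0.36 for Hspg2. With the mean over probe sets, VEGF against untreated gave 0.21 for Col4a1 and 0.094 for Nid1, Ang1 gave 0.11 for Col18a1, and VEGF against Ang1 gave 0.24 for Col4a1. The members' median was 0.35 for VEGF, -0.048 for Ang1 and 0.30 for VEGF against Ang1 with scaled arrays, 0.18, -0.026 and 0.13 without both libraries, and 0.28, 0.078 and 0.32 with the mean over probe sets. Leaving out single RNAs it ran from 0.11 to 0.47 for VEGF (without VEGF replicates 3 and 1), from -0.11 to 0.16 for Ang1 (without untreated replicates 1 and 3) and from -0.093 to 0.33 for VEGF against Ang1 (without VEGF replicates 3 and 1), with 0.077 without Ang1 replicate 1. The cause was not tested.

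Leaving out single RNAs, the ranges of differences that changed sign were, for Ang1 against untreated, -0.12 to 0.30 in Col15a1, -0.51 to 0.77 in Col18a1, -0.43 to 0.010 in Col4a1, -0.022 to 0.62 in Hspg2, -1.16 to 0.53 in Lama4, -0.11 to 0.82 in Lamc1 and -0.28 to 0.60 in Nid2. For VEGF against untreated they were -0.22 to 0.033 in Col15a1, -0.073 to 0.47 in Col4a2 and -0.43 to 0.45 in Lamb1. For VEGF against Ang1 they were -0.38 to 0.028 in Col15a1, -0.16 to 0.11 in Col4a1, -0.34 to 0.36 in Hspg2, -0.075 to 0.88 in Lamb1, -0.10 to 0.60 in Lamc1 and -0.11 to 0.21 in Nid1.

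The design text has each animal giving rings to all groups, but the labels do not say that a replicate number marks an animal. Same-numbered RNAs deviated together with a correlation above 0.1 in 7 of 9 pairs on each array type, not in every pair, and the numbers were not taken as pairs. As a hint of pairing from the data, 9 of 9 RNAs correlated best with their own number on both types. With the replicate number as a block 0 probe sets passed, and unadjusted calls on array A went from 157 to 294 for VEGF, 302 to 415 for Ang1 and 189 to 408 for VEGF against Ang1, and on array B from 66 to 98, 960 to 979 and 777 to 887. Because each group holds every replicate number, the block leaves all differences unchanged and can alter only their SE and p-values. At an unadjusted p below 0.05 it placed 1 member for Ang1 against untreated (Col4a2, 0.81 ± 0.33, p 0.0326 in limma, adjusted p 0.845) and 1 for VEGF against Ang1 (Lama4, 1.26 ± 0.46, p 0.0218, adjusted p 0.870), where the fit without the block placed 0.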
